A study of Mus musculus with 8 samples.

Results

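The fibroblast growth factor (FGF) genes described here were taken by their symbols from the mouse gene annotation. The rule uses no measured value, but the family was chosen with earlier results of these data known. They are 33 of the 22367 protein-coding gene models on chromosomes 1 to 19, X and Y: the ligands Fgf1 to Fgf18 and Fgf20 to Fgf23, the receptors Fgfr1, Fgfr2, Fgfr3 and Fgfr4, the receptor-like gene Fgfrl1, the klotho co-receptors Kl and Klb, the binding proteins Fgfbp1 and Fgfbp3, and the adaptors Frs2 and Frs3. In LLC-NR and LLC-R tumors, 4 histone modifications were mapped by immunoprecipitation of nucleosomes and sequencing. Both are Lewis lung carcinoma cells, a mouse lung tumor line, grown as isografts under the skin of the right flank of female C57BL/6J mice aged 6 to 8 weeks. LLC-NR is the drug-sensitive line, and LLC-R was selected for resistance by 5 rounds of growth in mice given VEGF-Trap, a decoy receptor for the vascular growth factor VEGF. Whole tumor tissue was used, so nuclei of the host's vessels, stroma and immune cells are included with the tumor cells, and fewer cells of a type cannot be told apart from less of a mark per cell. Each line gave 1 library for H3K4me3, H3K9ac, H3K27me3 and H3K36me3. There was thus no replicate, no test between the lines was possible, and a difference between LLC-NR and LLC-R is a difference between a pair of libraries.

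FGF ligands bind receptor tyrosine kinases together with heparan sulfate on the cell surface, and the receptors signal through the docking protein Frs2 to the RAS and MAP kinase cascade. A few ligands act as hormones and need a klotho co-receptor, and the intracellular FGFs bind voltage-gated sodium channels rather than a receptor. FGF signalling drives growth of vessels and can sustain tumor vessels when VEGF is blocked. H3K4me3 and H3K9ac mark promoters that are open or in use, H3K27me3 is laid down by the Polycomb complex on silent developmental genes, and H3K36me3 follows transcription through the gene body.

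The deposited data give the position of each peak and no height. Every peak is 147 bp wide, about 1 nucleosome, so the level of a mark in a region is how many peak midpoints fell into it. The libraries held from 5660458 to 9101721 peaks. A promoter, which here begins 1 kb before the transcription start site (TSS) and ends 0.5 kb after it, held at most 9 peaks of a mark, and the mean promoter held 1.53-fold (LLC-NR) and 1.43-fold (LLC-R) the H3K4me3 peaks of windows of the same length away from any TSS. For H3K27me3 this ratio was 1.08 (LLC-NR) and 1.03 (LLC-R). Chromosome Y held 48 to 328 peaks in the LLC-NR libraries and 1497 to 3205 in the LLC-R libraries, and what these cells are was not tested. All 33 FGF promoters held peaks of at least 1 mark in each line.

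By sequence, 18 of the 33 FGF promoters were CpG-rich (HCPs), 8 intermediate (ICPs) and 7 CpG-poor (LCPs). These are 54.5%, 24.2% and 21.2%, against 53.9%, 17.7% and 28.4% of all promoters. An HCP contains a 500-bp interval with at least 55% G+C and an observed to expected CpG ratio of at least 0.6, and an LCP contains none with a ratio of 0.4. The 200 bases just upstream of the TSS are printed for Frs2 and Fgfrl1, which tie with Fgf11 for the most H3K4me3 over both lines, for Fgf18 and Fgfr3, and for 1 TSS each of Fgfr1 and Fgf12, whose H3K4me3 depended on the TSS. They run 5′ to 3′ on the strand of the gene, were read from NCBIM37 (mm9), overlap no exon of a protein-coding gene, and have each CG in capitals.
Frs2 (chr10:116585531-116585730, minus strand): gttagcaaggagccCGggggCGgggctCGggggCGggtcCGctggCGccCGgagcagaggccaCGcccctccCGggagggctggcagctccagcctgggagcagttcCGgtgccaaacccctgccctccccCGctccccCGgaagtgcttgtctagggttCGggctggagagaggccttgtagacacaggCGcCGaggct
Fgfrl1 (chr5:109123048-109123247, plus strand): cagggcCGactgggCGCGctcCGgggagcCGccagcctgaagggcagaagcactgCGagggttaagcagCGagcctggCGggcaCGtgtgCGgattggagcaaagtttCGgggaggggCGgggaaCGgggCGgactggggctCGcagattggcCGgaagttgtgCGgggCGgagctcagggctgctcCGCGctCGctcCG
Fgfr3 (chr5:34064173-34064372, plus strand): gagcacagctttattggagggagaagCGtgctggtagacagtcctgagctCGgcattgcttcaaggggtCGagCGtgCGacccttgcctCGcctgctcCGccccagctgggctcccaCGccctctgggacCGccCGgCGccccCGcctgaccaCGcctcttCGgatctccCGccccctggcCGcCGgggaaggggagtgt
Fgf18 (chr11:33047401-33047600, minus strand): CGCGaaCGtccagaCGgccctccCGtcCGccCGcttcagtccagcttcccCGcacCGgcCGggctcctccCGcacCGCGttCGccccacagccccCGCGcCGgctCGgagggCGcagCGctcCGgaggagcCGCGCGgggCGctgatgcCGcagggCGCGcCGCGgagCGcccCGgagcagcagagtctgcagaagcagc
Fgfr1, upstream TSS (chr8:26623926-26624125, plus strand): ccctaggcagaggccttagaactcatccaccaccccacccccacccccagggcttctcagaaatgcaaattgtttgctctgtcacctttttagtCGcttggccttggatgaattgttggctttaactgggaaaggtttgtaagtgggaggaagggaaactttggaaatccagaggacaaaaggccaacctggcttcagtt
Fgf12, CpG-rich TSS (chr16:28445314-28445513, minus strand): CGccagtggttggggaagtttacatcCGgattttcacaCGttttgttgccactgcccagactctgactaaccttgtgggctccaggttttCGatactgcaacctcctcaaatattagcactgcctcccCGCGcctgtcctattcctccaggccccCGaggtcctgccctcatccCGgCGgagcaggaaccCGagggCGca
The Fgf18 window holds 32 CG dinucleotides, Fgfrl1 22, Fgfr3 17 and Frs2 15. The upstream, CpG-poor TSS of Fgfr1 has 1, and the CpG-rich TSS of Fgf12 has 11. The median over all promoters was 7, and 43.1% of them held at least 10.

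Most FGF promoters carried H3K27me3 above the genome's mean in both lines. The mean number of H3K27me3 peaks per FGF promoter was, with the SD over 33 genes, 5.64 ± 1.17 for LLC-NR and 6.27 ± 0.839 for LLC-R, against 4.55 ± 1.86 and 5.45 ± 1.71 over all promoters. In LLC-NR 28 of 33 FGF promoters were at or above the mean of all promoters (84.8%, exact binomial 95% interval 68.1% to 94.9%), as were 56.5% of all promoters. LLC-R also had 28 of 33, against 58.7% of all. In both lines together, 24 promoters met this, which is 72.7% of the FGF promoters and 43.5% of all promoters. Of the 22 ligand genes, the intracellular FGFs included, 21 were at or above the mean in LLC-NR and 20 in LLC-R, while of the other 11 genes 7 and 8 were. These intervals cover counting error only.

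H3K27me3 was also higher than in all promoters of the same class among the CpG-rich FGF promoters; CpG content was not matched within the class. In the 18 HCPs among the FGF genes, H3K27me3 averaged 5.89 ± 1.13 peaks (LLC-NR) and 6.28 ± 0.958 peaks (LLC-R), where all 12045 HCPs averaged 4.68 ± 1.62 and 5.58 ± 1.36. H3K4me3 in the same 18 promoters was at 5.61 ± 1.46 and 5.44 ± 1.42 peaks, below the 6.05 ± 1.35 and 5.60 ± 1.31 of all HCPs. H3K9ac was lower too, with 5.17 ± 1.5 and 4.89 ± 1.18 against 5.85 ± 1.38 and 5.24 ± 1.32. Each of these differences was smaller than the SD over all HCPs, and that of H3K27me3 in LLC-NR was larger than the SD over the 18. In every 500-bp step within 2 kb of the TSS, the 18 genes had more H3K27me3 peaks per promoter than all HCPs. The excess was not even. The 500 bp before the TSS held 1.944 peaks per promoter for LLC-NR and 2.056 for LLC-R, against 1.465 and 1.771 in all HCPs. The last 200 bp before the TSS, the stretch printed above, held 0.944 H3K27me3 peaks per promoter for LLC-NR and 1.0 for LLC-R, against 0.553 and 0.650 in all HCPs. This was not particular to H3K27me3. In LLC-NR the 18 genes were also higher there in H3K4me3 (0.944 against 0.770), H3K9ac (0.667 against 0.590) and H3K36me3 (0.5 against 0.243). In LLC-R they were higher in H3K9ac (0.611 against 0.489) and H3K36me3 (0.556 against 0.467) and lower in H3K4me3 (0.611 against 0.689).

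**Figure D1:**
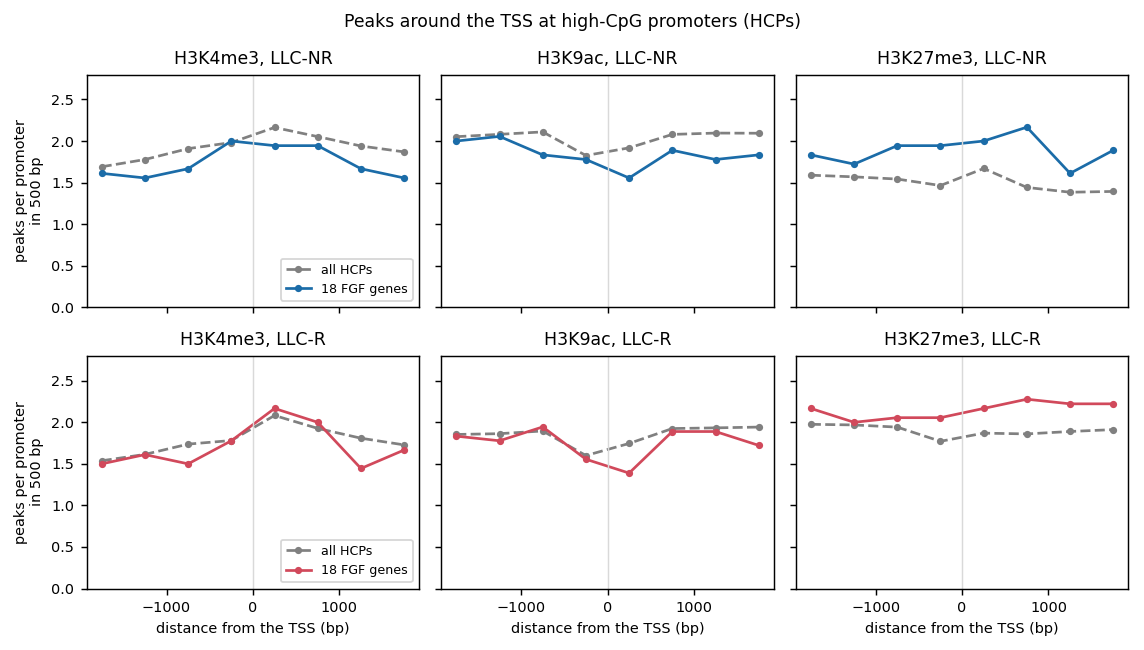
Peaks per promoter in steps of 500 bp (y axis) against distance from the TSS in bp (x axis) for H3K4me3, H3K9ac and H3K27me3 in LLC-NR (top) and LLC-R (bottom). Solid lines are the 18 FGF genes with CpG-rich promoters and dashed lines all 12045 such promoters; the solid H3K27me3 line lies above the dashed one in both lines, while H3K4me3 and H3K9ac lie near or below it.

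Promoter states took their names from the study's classification. The study's methods used normalized tag counts and a higher limit for the active marks. Its figure legend names the average over all promoters instead, and that limit was followed, on peak numbers and not tag counts. Here states rest on peak numbers, with H3K4me3 or H3K9ac at or above the mean of all promoters (active), H3K27me3 at or above its mean (repressive), both (bivalent) or neither (none). In LLC-NR 23 of 33 FGF promoters were bivalent (69.7%, interval 51.3% to 84.4%), 3 active, 5 repressive and 2 none. Over all promoters 48.3% were bivalent and 29.8% active. In LLC-R 22 FGF promoters were bivalent (66.7%, against 52.9% of all), 4 active, 6 repressive and 1 none. The bivalent number depended on the limit: with active marks at 1.2 times the mean, 10 FGF promoters were bivalent in LLC-NR (against 34.0% of all promoters) and 15 in LLC-R (against 38.5% of all), and 18 and 13 were repressive (against 22.5% and 20.2% of all). The active promoters were Fgfrl1, Fgfbp3 and Frs3 in LLC-NR and Fgf11, Fgf12, Fgfr1 and Frs3 in LLC-R, so Frs3, an adaptor that links receptors to MAP kinase signalling, was active in both. The state was the same in both lines for 20 of 33 genes (60.6%), near the 62.1% of all promoters. Repressive in both were Fgf10 and Fgf13, at the TSS used for each. Other starts of these genes differed in H3K4me3, as given below.

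Between the lines, H3K4me3 differed by at least 2 peaks at 13 of 33 FGF promoters. LLC-R had more peaks at 4 (12.1%, interval 3.40% to 28.2%, against 9.0% of all promoters) and fewer at 9 (27.3%, interval 13.3% to 45.5%, against 18.4%). The median difference was -1 peak for the FGF genes and 0 for all promoters. The genes with more H3K4me3 in LLC-R were Fgf5, Fgfr2, Fgfr3 and Kl, and those with fewer were Fgf1, Fgf6, Fgf12, Fgf21, Fgf22, Fgf23, Fgfbp3, Fgfr4 and Frs2. By role, 1 of 22 ligand genes had more and 6 fewer, and 3 of the other 11 had more and 3 fewer. With the numbers scaled to equal peaks in background windows, 0 had more (against 2.52% of all promoters) and 9 fewer (against 18.4% of all). Scaled to equal uniquely mapped reads, 5 had more (against 17.0% of all) and 1 fewer (against 3.04% of all). Scaled to each library's own peaks, 4 had more and 2 fewer (against 9.0% and 5.2% of all). Which direction prevailed thus depended on the scaling. Such scalings move differences of exactly 2 peaks across the limit. Without scaling, a limit of 3 peaks left 0 genes with more and 2 with fewer (against 2.52% and 5.2% of all).

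Differences of at least 2 peaks in H3K9ac came to 4 genes with more (12.1%, against 5.4% of all promoters) and 9 with fewer in LLC-R (27.3%, against 22.1%). The 4 with more H3K9ac were Fgf3, Fgf18, Fgf23 and Kl. For H3K27me3 the numbers were 7 with more (21.2%, against 31.9%) and 3 with fewer (9.09%, against 3.46%), from a LLC-R library with more peaks than that of LLC-NR. Only 1 of the 18 HCP genes, Fgfrl1, gained 2 or more H3K27me3 peaks (5.56%, against 33.3% of all HCPs), whereas 5 of the 8 ICP genes did (62.5%, against 29.9% of all ICPs): Fgf7, Fgf9, Fgf14, Fgfbp3 and Fgfr2. The HCP genes started from 5.89 peaks in LLC-NR and the ICP genes from 4.88. Both directions depended on the scaling. Scaled to uniquely mapped reads, 20 genes had more H3K9ac (against 64.8% of all promoters) and 29 had fewer H3K27me3 (against 66.2% of all) in LLC-R. Scaled to own peaks or to background windows, 4 had more and 1 fewer H3K9ac (against 5.4% and 6.38% of all), and 2 had more and 5 fewer H3K27me3 (against 9.52% and 13.6% of all). H3K36me3 at the promoter was higher in LLC-R by at least 2 peaks at 18 FGF genes (54.5%, against 56.0%) and lower at 0 (against 1.11%). The LLC-R library of this mark also held more peaks, 8747519 against 6432447. The mean promoter held 0.86-fold (LLC-NR) and 0.98-fold (LLC-R) the H3K36me3 peaks of background windows.

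**Figure D2:**
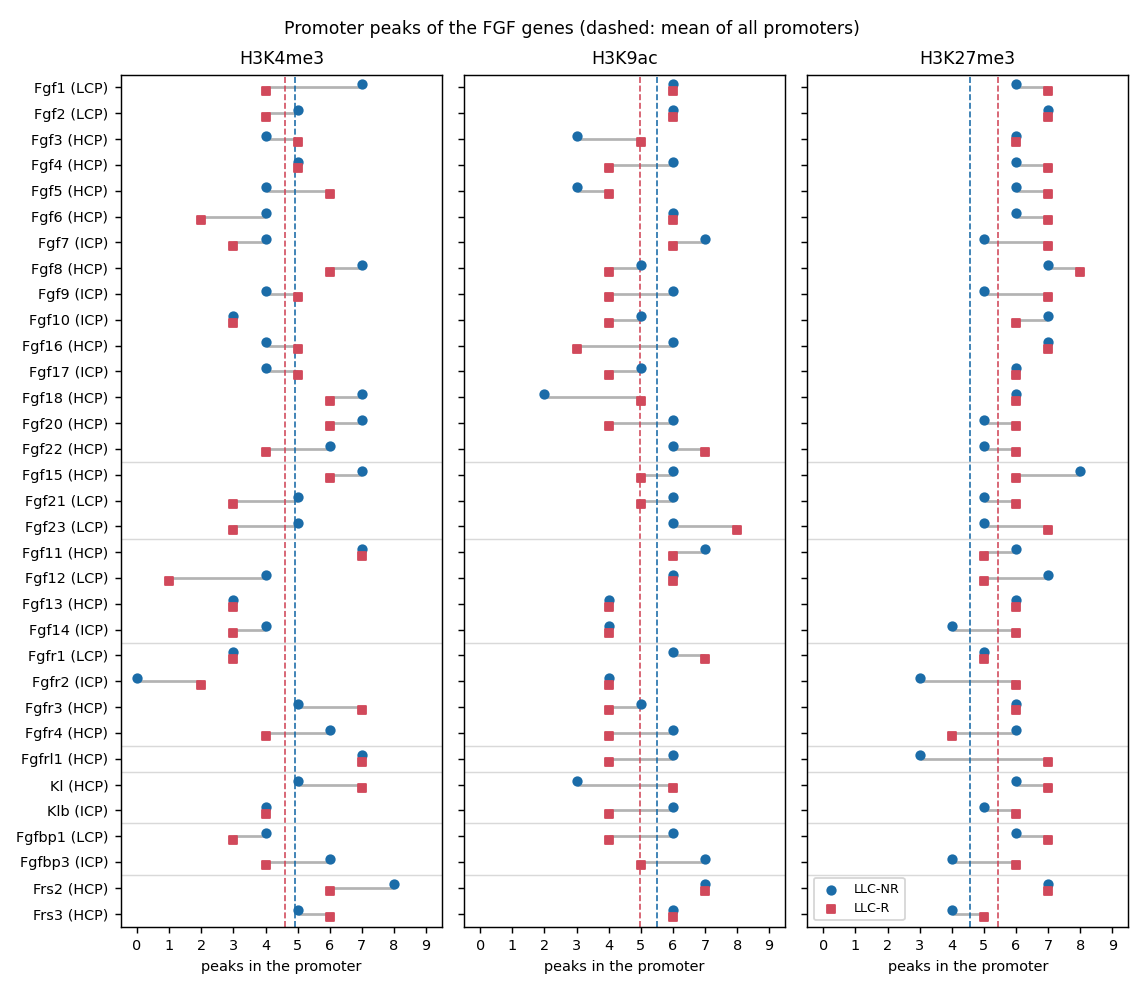
Number of peaks in the promoter (x axis) for each of the 33 FGF genes (y axis, with the CpG class), in LLC-NR (circles) and LLC-R (squares), for 3 marks; dashed lines are the means of all promoters. Horizontal lines separate secreted ligands, hormone-like ligands, intracellular FGFs, receptors, Fgfrl1, co-receptors, binding proteins and adaptors; in the H3K27me3 panel 28 of 33 symbols of each line lie right of that line's mean.

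Among the secreted ligands, Fgf1 and Fgf2 are broadly acting angiogenic factors whose promoters were CpG-poor at the TSS used for each. Fgf1 (TSS at position 39089058 of chromosome 18) had 7 H3K4me3 peaks in LLC-NR against 4 in LLC-R, with 6 and 6 H3K9ac and 6 and 7 H3K27me3 peaks. The loss of 3 H3K4me3 peaks was shared only with Fgf12 as the largest of the set. Fgf2 had 5 and 4 H3K4me3, 6 and 6 H3K9ac and 7 and 7 H3K27me3 peaks, so it differed by at most 1 at this TSS. Its CpG-rich starts differed from this. The one 32409 bp upstream had 6 and 5 H3K4me3 and 7 and 8 H3K27me3 peaks. The one 68236 bp upstream, which starts no coding transcript, had 7 and 7 H3K4me3 and 5 and 8 H3K27me3 peaks. All 7 CpG-poor FGF promoters together averaged 4.71 H3K4me3 peaks in LLC-NR but 3.0 in LLC-R, with 6 of the 7 lower in LLC-R. All 6360 CpG-poor promoters averaged 3.28 and 3.18, and 36.4% of them were lower. This group depended on the TSS, and 5 FGF promoters were CpG-poor with the most upstream TSS. Fgf2, Fgf12 and Fgfr1 also have CpG-rich starts of coding transcripts. These had 6 and 5, 5 and 5, and 6 and 5 H3K4me3 peaks.

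Fgf7 and Fgf10 are mesenchymal ligands that act on epithelium through a splice form of Fgfr2. Fgf7 had 4 H3K4me3 peaks in LLC-NR against 3 in LLC-R, 7 and 6 of H3K9ac, and 5 and 7 of H3K27me3. Fgf10 had 3 and 3, 5 and 4, and 7 and 6, and its 6 H3K4me3 peaks over both lines equalled Fgf6, Fgf13 and Fgfr1, with fewer at Fgfr2 and Fgf12. Fgf22, of the same subfamily, had 6 and 4 H3K4me3, 6 and 7 H3K9ac and 5 and 6 H3K27me3 peaks. None of the 3 thus had more H3K4me3 in LLC-R at the TSS used for each. The TSS used for Fgf10 starts no coding transcript. Its coding start, 44908 bp downstream and CpG-rich, had 4 and 6 H3K4me3 peaks.

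Fgf8, Fgf17 and Fgf18 form the subfamily known for patterning of brain and limb, and Fgf18 also for cartilage and lung. Fgf18, a ligand in the study's list of genes, had 7 H3K4me3 peaks in LLC-NR against 6 in LLC-R, with 6 H3K27me3 peaks in each. Its H3K9ac went the other way, from 2 peaks, the lowest number of any FGF gene in LLC-NR, to 5. Fgf8 had 7 and 6 H3K4me3 and 7 and 8 H3K27me3 peaks, the most H3K27me3 of the set in LLC-R. Fgf17 had 4 and 5 H3K4me3 and 6 and 6 H3K27me3 peaks.

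Fgf5, which ends the growth phase of hair, was the ligand with 2 more H3K4me3 peaks in LLC-R: 4 in LLC-NR and 6 in LLC-R, with 3 and 4 H3K9ac and 6 and 7 H3K27me3 peaks. Fgf6, a muscle ligand, went from 4 to 2 H3K4me3 peaks at 6 and 6 H3K9ac and 6 and 7 H3K27me3 peaks. Fgf3 and Fgf4, embryonic growth factors that can act as oncogenes, and Fgf15 lie beside each other on chromosome 7. Fgf3 had 4 and 5 H3K4me3 peaks and Fgf4 5 and 5. In the Fgf9 subfamily, the H3K4me3 numbers were 4 and 5 for Fgf9, 4 and 5 for Fgf16 and 7 and 6 for Fgf20, while H3K9ac was lower in LLC-R by 2 peaks at Fgf9 and Fgf20 and by 3 at Fgf16.

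The hormone-like ligands act far from their source: Fgf15 restrains bile acid synthesis in liver, Fgf21 regulates metabolism in fasting and Fgf23 controls phosphate. Fgf15, CpG-rich, had 7 H3K4me3 peaks in LLC-NR against 6 in LLC-R, and 8 and 6 of H3K27me3, where 8 was the highest number in LLC-NR. Fgf21 and Fgf23, both CpG-poor, each had 5 and 3 H3K4me3 peaks. At Fgf23 H3K9ac and H3K27me3 were higher in LLC-R, with 6 and 8 and with 5 and 7 peaks, whereas Fgf21 had 6 and 5 and 5 and 6. All 3 were lower in H3K4me3 in LLC-R.

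Of the intracellular FGFs, which modulate sodium channels of neurons and heart, Fgf11 was among the 3 genes with the most H3K4me3, at 7 and 7 peaks. Fgf12 had 4 H3K4me3 peaks in LLC-NR against 1 in LLC-R, with 6 and 6 H3K9ac and 7 and 5 H3K27me3 peaks. Fgf13 on chromosome X had 3 and 3, 4 and 4, and 6 and 6, and did not differ in any of these marks. Fgf14 had 4 and 3, 4 and 4, and 4 and 6. At the TSS used for each, Fgf13 and Fgf14 were below the mean in both active marks in both lines. A CpG-rich start of Fgf13, 433635 bp downstream, had 5 and 6 H3K4me3 and 1 and 3 H3K9ac peaks.

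Among the receptors, Fgfr3 and Fgfr4 differed in opposite directions in H3K4me3, while H3K9ac was lower in LLC-R at both. Fgfr3 had 5 H3K4me3 peaks in LLC-NR against 7 in LLC-R, 5 and 4 of H3K9ac and 6 and 6 of H3K27me3. Fgfr4, the receptor of liver and of Fgf15, had 6 and 4 in each of the 3 marks, and was the one FGF promoter that passed from bivalent to none.

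Fgfr1 and Fgfr2 stood low in H3K4me3 at the TSS used here. For each gene this is the position at which the most transcripts start, or the most upstream one where several tie, and at Fgfr1 it is the start of 1 of 13 transcripts. Fgfr1, a main receptor of tumor and vessel cells, had 3 and 3 H3K4me3, 6 and 7 H3K9ac and 5 and 5 H3K27me3 peaks at its upstream CpG-poor TSS. Fgfr2 had 0 H3K4me3 peaks in LLC-NR against 2 in LLC-R, the fewest of the set over both lines, with 4 and 4 H3K9ac and 3 and 6 H3K27me3 peaks. Fgfrl1, which binds ligands but has no kinase domain, had 7 and 7 H3K4me3 peaks, 6 and 4 of H3K9ac and 3 and 7 of H3K27me3. That gain of 4 was the largest in H3K27me3 among the FGF genes, and Fgfrl1 passed from active to bivalent.

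Kl, the co-receptor of Fgf23, had more of all 3 marks in LLC-R: 5 and 7 H3K4me3, 3 and 6 H3K9ac and 6 and 7 H3K27me3 peaks. Klb, the co-receptor of Fgf15 and Fgf21, had 4 and 4, 6 and 4, and 5 and 6. The secreted binding proteins release ligands from the matrix. Fgfbp1 had 4 and 3 H3K4me3, 6 and 4 H3K9ac and 6 and 7 H3K27me3 peaks, and Fgfbp3 had 6 and 4, 7 and 5, and 4 and 6, so both were lower in the active marks and higher in H3K27me3 in LLC-R.

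The adaptor Frs2, which couples activated receptors to Grb2 and Ptpn11, had the highest H3K4me3 number of any FGF promoter in LLC-NR, 8 peaks, and 6 in LLC-R. Its H3K9ac (7 and 7) and H3K27me3 (7 and 7) were equal. The 6 LLC-R peaks had their midpoints at -900, -659, -484, -285, 72 and 382 bp from the TSS, each within 50 bp of one of the LLC-NR peaks at -904, -657, -482, -284, 67 and 394 bp. The remaining LLC-NR peaks, at -124 and 246 bp, had no partner in LLC-R. Frs3 had 5 and 6 H3K4me3, 6 and 6 H3K9ac and 4 and 5 H3K27me3 peaks.

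Such agreement in position was not general. Of the 163 H3K4me3 peaks of LLC-NR in FGF promoters, 47.9% (interval 40.0% to 55.8%) had an LLC-R peak within 50 bp, against 54.2% for all promoters. For H3K9ac it was 52.0% of 179 peaks, against 55.8%. For H3K27me3 it was 60.2% of 186 peaks (interval 52.8% to 67.3%), against 56.4%. H3K27me3 thus had the highest of these 3 shares, although the LLC-R library of this mark also held the most peaks. The order depended on the reading: of the LLC-R peaks, 57.0% in H3K9ac and 53.6% in H3K27me3 had an LLC-NR peak within 50 bp, and within 20 bp H3K9ac was also higher (35.2% against 32.8% of the LLC-NR peaks).

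The low H3K4me3 at Fgfr1, Fgf12 and Fgf13 depended on which TSS was read. At Fgfr2, only the start 2909662 bp upstream had more than 4 peaks in LLC-NR. Of the 33 genes, 13 have TSSs more than 2 kb apart, in 50 clusters, of which 30 start a coding transcript. The 16 CpG-rich clusters among these 30 had a median of 5.5 H3K4me3 peaks in LLC-NR against 5 in LLC-R, the 9 intermediate ones 4 and 4, and the 5 CpG-poor ones 4 and 3. At Fgfr1, the downstream CpG-rich cluster, from which 5 transcripts start, had 6 and 5 H3K4me3, 6 and 7 H3K9ac and 6 and 6 H3K27me3 peaks. A second gene model with the symbol Fgfr1, which starts close to it, is not among the 33.

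At Fgfr2, the CpG-rich cluster 4388 bp upstream of the main TSS had 1 H3K4me3 peak in LLC-NR and 4 in LLC-R, with 8 and 7 H3K27me3 peaks. A single transcript of Fgfr2 starts 2909662 bp upstream, at a CpG-rich site with 6 and 6 H3K4me3 peaks. Both main Fgfr2 clusters therefore had more H3K4me3 in LLC-R, from 0 or 1 peak in LLC-NR. At Fgf12 the upstream CpG-rich TSS had 5 and 5 H3K4me3 peaks, in contrast to 4 and 1 at the CpG-poor TSS, but its H3K9ac went from 5 peaks to 1.

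Further CpG-rich starts belonged to ligands and an adaptor. Fgf9 had 7 and 5 H3K4me3 peaks at the TSS 4568 bp downstream, against 4 and 5 at the main TSS. Fgf10 had 4 and 6 peaks 44908 bp downstream, against 3 and 3. Frs3 had 7 and 7 at 6168 bp downstream, against 5 and 6. At Fgf14 the TSS 484225 bp downstream, used by 1 transcript, had 1 H3K27me3 peak in LLC-NR against 6 in LLC-R, the widest difference in this mark at any of these start sites.

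**Figure D3:**
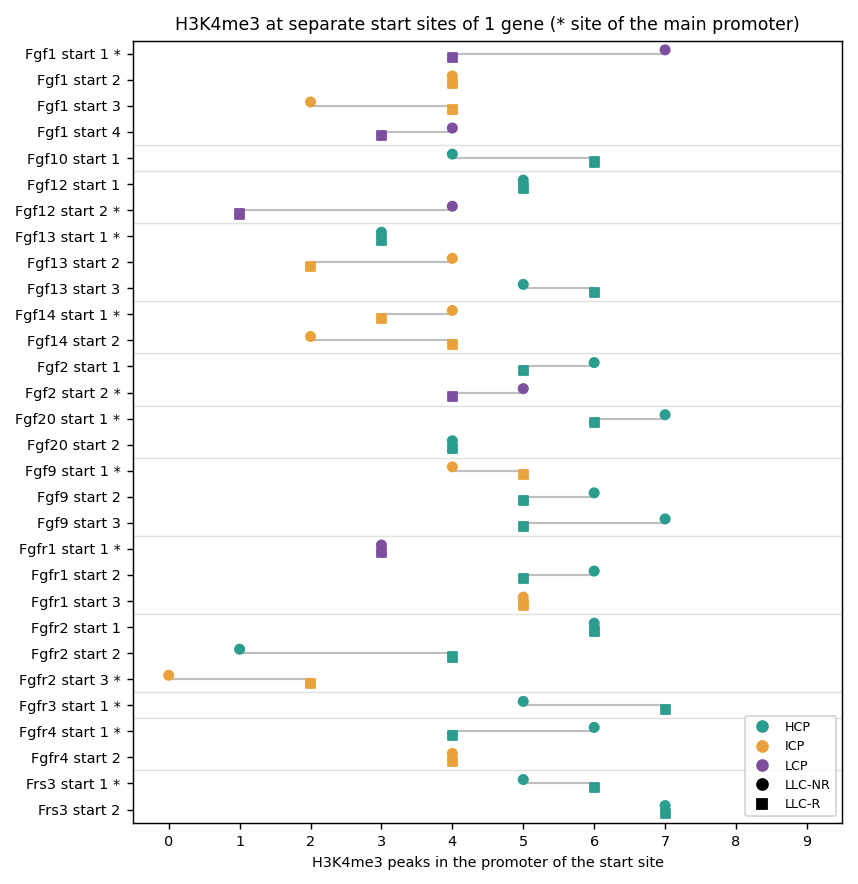
Number of H3K4me3 peaks (x axis) in the promoter of each cluster of start sites with a coding transcript (y axis, numbered from upstream to downstream) of 13 FGF genes, in LLC-NR (circles) and LLC-R (squares), coloured by CpG class; the star is the site used for the gene elsewhere. Fgfr1, Fgfr2, Fgf2, Fgf12, Fgf13 and Frs3 have more peaks in both lines at a CpG-rich start than at the starred one.

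Over gene bodies, the FGF genes ranked high in H3K27me3 and low in H3K36me3 in both lines. The peaks per kb of each gene of at least 5 kb were ranked within a library among 16526 such genes, 27 of them FGF genes. The median FGF gene was at percentile 77.6 for H3K27me3 in LLC-NR against 79.3 in LLC-R, and at percentile 30.3 and 36.6 for H3K36me3. In both lines 22 of the 27 were above percentile 50 for H3K27me3, as were 41.8% of all genes, and 14 were above percentile 75, as were 19.5% of all. For H3K36me3, 18 of the 27 were below percentile 50 in both lines, as were 41.0% of all genes. H3K4me3 (medians 42.8 and 48.7) and H3K9ac (36.2 and 35.2) lay somewhat below the middle.

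Only Fgfr1 and Frs2 were above percentile 50 for H3K36me3 in both lines. Frs2 had 297 H3K36me3 peaks over 78.3 kb in LLC-NR and 339 in LLC-R, at percentiles 78.6 and 88.2. Fgfr1 had 235 and 261 over 62.1 kb, at percentiles 78.4 and 74.9. At the other end, the long gene Fgf14 (699 kb) was below percentile 15 in all 4 marks in both lines, and Fgf13 (506 kb) was below it in H3K4me3, H3K9ac and H3K36me3; the part of gene length in these ranks was not tested. Among the ligands, Fgf8 was at percentiles 93.1 and 95.1 for H3K27me3, Fgf20 at 88.9 and 96.6, and Fgf23 at 89.7 and 99.6. Klb was at 89.3 and 93.6, Fgfr4 at 88.6 and 91.5 and Fgfr3 at 79.4 and 92.8.

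**Figure D4:**
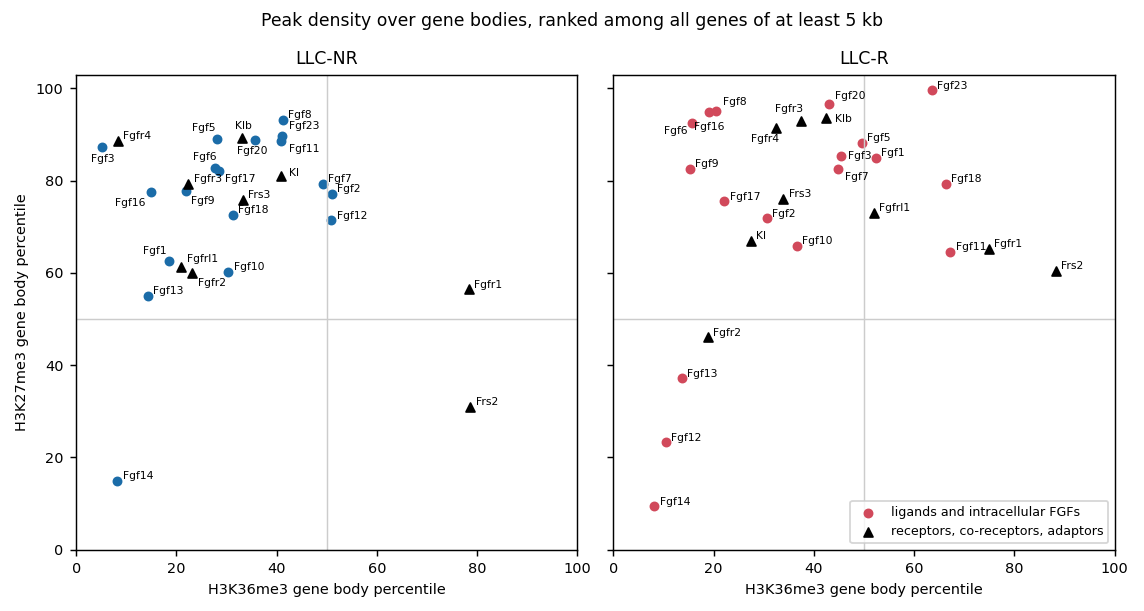
Percentile of H3K27me3 peaks per kb (y axis) against that of H3K36me3 (x axis) over the bodies of 27 FGF genes, each ranked among 16526 genes of at least 5 kb, in LLC-NR (left) and LLC-R (right). Most genes lie in the upper left, with Fgfr1 and Frs2 to the right in both panels and Fgf14 at the lower left.

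Between the lines, gene bodies were compared as shares of each library's peaks, among genes with at least 50 peaks in both libraries, with a ratio of at least 1.2-fold counted as a difference. For H3K4me3, 0 of 17 FGF genes were higher in LLC-R (against 5.33% of all genes) and 2 lower, Fgf12 and Fgf20 (against 3.72%). For H3K9ac, 0 of 19 were higher (against 0.164%) and 1 lower, Fgf12 (against 0.381%). For H3K27me3, 2 of 19 were higher, Frs2 and Fgf14 (against 27.1%), and 1 lower, Fgf12 (against 8.21%). For H3K36me3, 1 of 16 was higher, Fgf1 (against 4.36%), and 2 lower, Fgf12 and Fgfr1 (against 36.2%). Median log2 ratios were -0.13 for H3K27me3 and 0.05 for H3K36me3 in the FGF genes, and 0.04 and -0.19 in all genes.

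Frs2 had the highest H3K27me3 ratio. Its body held 179 H3K27me3 peaks in LLC-NR against 307 in LLC-R, a log2 ratio of shares of 0.45, while the 1 Mb on either side was at -0.15. H3K36me3 of Frs2 was at -0.25, which ranked among the 3 lowest, and H3K4me3 at 0.05. Fgf14 had 1353 and 2167 H3K27me3 peaks (0.35, surroundings 0.10), and Fgfr1 179 and 247 (0.13, surroundings 0.01). The 3 lowest H3K27me3 ratios were Fgf12 (988 and 994 peaks, -0.32), Kl (155 and 165, -0.24) and Fgf5 (91 and 98, -0.22). The surroundings of Kl were at -0.01 and those of Fgf5 at 0.03, so these genes were lower than the region they lie in.

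For H3K36me3 the highest ratios were Fgf1 (215 and 364 peaks, 0.31, surroundings 0.07), Fgf14 (1337 and 2154, 0.24, surroundings 0.20) and Fgf13 (1129 and 1730, 0.17, surroundings 0.11). The lowest were Fgf12 (905 and 931, -0.40, surroundings -0.26), Fgfr1 (235 and 261, -0.29, surroundings -0.10) and Frs2. Fgf7 was at -0.12 with its surroundings at -0.21, and Fgf18 at 0.17 with surroundings at -0.03. Of the genes in the study's list, only Fgf1 (higher) and Fgfr1 (lower) passed the 1.2-fold limit in H3K36me3. Scaled to uniquely mapped reads, all 16 FGF genes were lower in LLC-R in H3K36me3, as were 99.5% of all genes, and all 19 were lower in H3K27me3, as were 93.9% of all genes.

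Fgf12 was lower in LLC-R in all 4 marks together with its region of chromosome 16. The log2 ratios of the gene body were -0.53 (806 and 556 peaks) in H3K4me3, -0.27 in H3K9ac, -0.32 in H3K27me3 and -0.40 in H3K36me3. Its surroundings were at -0.49, -0.23, -0.31 and -0.26. Less the surroundings, the gene was at -0.04, -0.04, -0.01 and -0.14, under the 1.2-fold limit (log2 0.26) in each. Fgf3, Fgf4 and Fgf15 on chromosome 7 had surroundings at 0.21 to 0.22 in H3K4me3 and 0.23 to 0.25 in H3K36me3, with -0.04 in H3K27me3, but too few peaks in the genes themselves for a ratio. Less the surroundings, only Frs2 in H3K27me3 passed the limit among the FGF genes in any mark. Passing it was common over all genes in H3K27me3, where 32.1% were higher and 5.27% lower, against 1 and 0 of 19 FGF genes. In H3K36me3, 3.25% of all genes were higher and 24.9% lower, against 0 and 0 of 16 FGF genes.

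**Figure D5:**
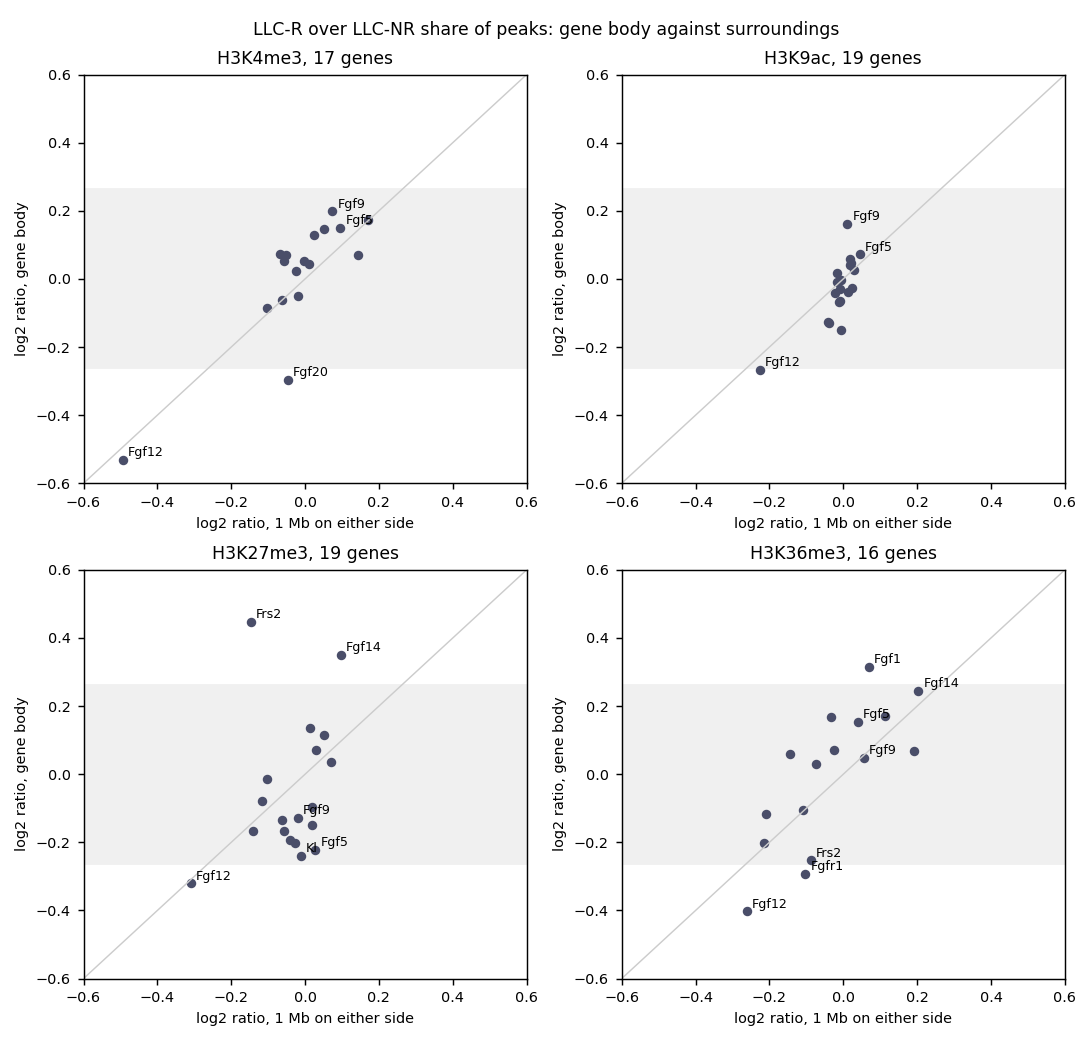
Log2 ratio of the LLC-R over the LLC-NR share of peaks in the gene body (y axis) against that of 1 Mb on either side of the gene (x axis), for FGF genes with at least 50 peaks in both libraries and 4 marks. The grey band is within 1.2-fold and the diagonal marks equal ratios; Fgf12 lies near the diagonal at the lower left in every panel except H3K36me3, where it is further below it, and Frs2 lies far above the diagonal in H3K27me3.

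The annotated Fgfr2 gene spans 3009 kb because of the single far upstream transcript. Over this span its ratios were 0.07, -0.03, -0.01 and 0.07 for H3K4me3, H3K9ac, H3K27me3 and H3K36me3. From the main TSS to the gene's end, 99.4 kb, they were 0.21, 0.07, -0.16 and 0.29, with 205 H3K36me3 peaks in LLC-NR against 342 in LLC-R.

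Genes through which FGF receptors signal were read in the same way. Of 22 signal transducers found, such as Grb2, all had CpG-rich promoters, and H3K4me3 had at least 2 more peaks in LLC-R at 1 (Plcg1) and fewer at 2 (Mapk3 and Pik3ca), where 5.84% and 19.4% of all HCPs did. In their bodies H3K27me3 was higher in LLC-R at 10 of 17 (against 27.1% of all genes) and lower at 0 (against 8.21%), with a median log2 ratio of 0.37 (0.04 over all genes), and H3K36me3 was lower at 11 of 19 (against 36.2% of all genes) and higher at 0 (against 4.36%), with a median of -0.27 (-0.19 over all genes). Among all genes with CpG-rich promoters, H3K27me3 was higher at 2358 of 6591 and lower at 334, with a median of 0.16. In the same class H3K36me3 was lower at 3401 of 7612 and higher at 256, with a median of -0.24. The FGF medians, -0.13 and 0.05, were of the opposite sign to those of the transducers. Those of the CpG-rich FGF genes alone were -0.13 and 0.09. The difference was not tested. Among 16 feedback inhibitors and targets, all with CpG-rich promoters too, H3K4me3 promoter peaks were more at 0 and fewer at 4 (against 5.84% and 19.4% of all HCPs). Body H3K36me3 was lower at 5 of 7, against 36.2% of all genes and 3401 of 7612 with CpG-rich promoters. In 29 heparan sulfate proteoglycans and their enzymes, H3K4me3 had more peaks at 1 (Agrn) and fewer at 5. The 6 adhesion partners of the receptors had 1 with more (Flrt1) and 1 with fewer (L1cam). For both lists the shares over all promoters are 9.0% with more and 18.4% with fewer.

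Markers of the cell types a tumor can hold were counted at the promoter. All promoters of the 9 lung epithelial, 5 mesenchymal, 6 leukocyte, 5 endothelial and 5 fibroblast markers held H3K4me3 peaks in both lines. The counts could therefore not show any of these cell types to be absent. Summed H3K4me3 peaks were 49 in LLC-NR and 48 in LLC-R for lung epithelium, 30 and 31 for mesenchyme, 29 and 23 for leukocytes, 24 and 19 for endothelium and 28 and 28 for fibroblasts. The endothelial markers Cdh5, Kdr and Tie1 had at least 2 fewer and Tek at least 2 more, and the leukocyte marker Ptprc had fewer. The part of these cells in the FGF differences was not tested.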

How the data were processed

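Peaks of H3K4me3, H3K9ac, H3K27me3 and H3K36me3 were analysed for LLC-NR and LLC-R isografts, 1 library per line and mark. The authors aligned reads to mm9 with Bowtie 0.12.7, kept uniquely mapped reads and called nucleosome-size peaks with GeneTrack in each library. The deposited values are peak positions (chromosome, start, end), with no count, height or input. Whether tumors were pooled is not given in the sources used here.

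Midpoints were counted in promoters (from 1 kb before to 0.5 kb after the TSS at which the most transcripts start, the most upstream one in ties) and gene bodies of GENCODE vM1 on NCBIM37. Body ratios are shares of each library's peaks with 0.5 peaks added. Neighbourhoods are 1 Mb on either side without the gene. Intervals are exact binomial 95% intervals. Counting, classes and ratios were tested on simulated data. Calculations ran under Python 3.11.15 with pandas 2.3.3, NumPy 2.4.6 and SciPy 1.17.1, and plots used Matplotlib 3.10.9.

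The genes and lists were chosen with earlier results of these data known. Named in full were the receptors, Fgfrl1, Kl, Klb, the genes in the study's list, those differing by at least 2 H3K4me3 peaks, and the 3 highest and 3 lowest in H3K4me3 number and in body ratios of H3K36me3 and H3K27me3. Hras, Spry3 and Anos1 were not matched by symbol and not analysed here. Some list genes and start-site sequences are not reported here. Alternatives changed the scaling, region, TSS, overlap and limits.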

Additional observations from a re-analysis of the deposited data

How the results depend on the processing

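These counts follow called peaks, so depth limits them: a promoter holds at most 9 peaks, differences rest on 1 library per line, and a read-depth difference cannot be told apart from a change in a mark between the lines. Ranks within a library need no scaling, and the number of FGF promoters with H3K27me3 at or above the mean was 28 in each line, 30 with promoters to 1 kb downstream and 29 with the most upstream TSS. No paired analysis was possible because each line and mark has 1 library.

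Of FGF promoters differing by at least 2 peaks, scaling by own peaks gave 2 with fewer H3K4me3 (against 5.2% of all promoters). It gave 1 with fewer H3K9ac (against 6.38%), and 2 with more and 5 with fewer H3K27me3 (against 9.52% and 13.6%). Scaling by uniquely mapped reads gave 1 with fewer H3K4me3 (against 3.04%). It gave 20 with more and 0 with fewer H3K9ac (against 64.8% and 0.241%), and 0 with more and 29 with fewer H3K27me3 (against 1.2% and 66.2%). Scaling by background windows gave 0 with more H3K4me3 (against 2.52%) and 1 with fewer H3K9ac (against 6.38%). It gave 2 with more and 5 with fewer H3K27me3 (against 9.52% and 13.6%). A limit of 3 peaks left 0 with more and 2 with fewer H3K4me3, 2 and 1 for H3K9ac, and 2 and 0 for H3K27me3, fewer by construction. With CpG intervals from 0.5 kb upstream to 2 kb downstream, 3 promoters were CpG-poor.

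With active marks at 1.2 times the mean, LLC-NR had 10 bivalent FGF promoters (against 34.0% of all promoters) and 18 repressive (against 22.5%). LLC-R had 13 repressive (against 20.2%). Promoters to 1 kb downstream gave 1 active and 9 repressive in LLC-NR (against 24.45% and 12.25%) and 2 active in LLC-R (against 29.6%). The most upstream TSS gave 1 in no state in LLC-NR (against 13.7%).

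For gene bodies, scaling by uniquely mapped reads gave 12 higher and 0 lower in H3K4me3 (against 53.1% and 0.122% of all genes). It gave 19 and 0 in H3K9ac (against 99.96% and 0%) and 0 and 19 in H3K27me3 (against 0.02% and 93.9%). In H3K36me3 it gave 0 and 16 (against 0% and 99.5%). Relative to 1 Mb on either side, 0 were lower in H3K4me3, H3K9ac, H3K27me3 and H3K36me3 (against 2.18%, 0.225%, 5.27% and 24.9% of all genes). By the same measure 1 was higher in H3K27me3 (against 32.1%) and 0 in H3K36me3 (against 3.25%). A minimum of 20 peaks gave 2 lower in H3K9ac (against 1.29% of all genes), 2 lower in H3K27me3 (against 9.28%) and 3 higher in H3K36me3 (against 6.45%). Bodies from the main TSS, an alternative chosen after seeing the data, gave 2 higher in H3K36me3 (against 4.3%). Within 20 bp, the matched LLC-NR peaks were 29.4% for H3K4me3, 35.2% for H3K9ac and 32.8% for H3K27me3. Apart from the read scaling, and the limits that lower numbers by construction, the cause of these shifts was not tested.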
